A study of Homo sapiens with 12 samples.

Results

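The zinc finger genes of human chromosome 19 were followed in CCRF-CEM cells, an established line of T lymphoblasts from acute lymphoblastic leukemia. Members were the genes whose name is ZNF, a number and at most 1 capital letter, and which the deposited tables place on chromosome 19. This rule took 259 of 43828 gene places and used no measured value, while 8 other chromosome 19 names that begin with ZNF, such as read-through and repeated names, did not match it. RNA reads had been counted over exons and over introns in 12 libraries, 3 in each of 4 groups. Cells with an SLFN11 gene knockout received camptothecin at 100 nM for 4 h, or DMSO, the solvent, as their control. Wild-type cells, here called parent cells, received camptothecin at 100 nM for 4 h, or DMSO as their control. Camptothecin is a drug that holds topoisomerase I in place on cut DNA. The product of SLFN11 is known for blocking replication in cells under replication stress. The labels say neither how the knockout was made nor whether it is 1 clone, and all 4 groups are the same leukemia line. They do not say that replicates were separate cultures either, and the spread behind each p-value is that between libraries, which may be technical.

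Most chromosome 19 ZNF genes arose by tandem duplication and lie in clusters. A typical member encodes a KRAB domain followed by an array of C2H2 zinc fingers. The fingers bind DNA, and the KRAB domain recruits TRIM28 and through it the histone methyltransferase SETDB1, which silence retrotransposons and other targets. ZNF genes themselves carry the same silent mark over their fingers, placed there partly through ZNF274, a member on this chromosome.

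The repeated finger is the shared sequence of these genes. The units below show it for 6 members on which the results turn, in coding letters of GENCODE v29 transcripts, 5′ to 3′, each 84 bases for 1 finger and its linker. Each is the unit nearest the start of the protein that has the usual spacing and linker. Capitals mark the codons of the 2 cysteines and 2 histidines that hold the zinc ion.
ZNF222: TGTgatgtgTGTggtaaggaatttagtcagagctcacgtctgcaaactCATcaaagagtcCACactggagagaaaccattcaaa
ZNF226: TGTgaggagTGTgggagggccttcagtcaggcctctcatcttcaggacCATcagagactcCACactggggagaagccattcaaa
ZNF773: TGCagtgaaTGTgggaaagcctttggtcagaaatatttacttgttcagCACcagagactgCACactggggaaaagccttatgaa
ZNF671: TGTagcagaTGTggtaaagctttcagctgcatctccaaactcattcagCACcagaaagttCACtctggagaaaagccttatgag
ZNF527: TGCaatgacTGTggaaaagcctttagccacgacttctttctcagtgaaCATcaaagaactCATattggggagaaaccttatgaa
ZNF583: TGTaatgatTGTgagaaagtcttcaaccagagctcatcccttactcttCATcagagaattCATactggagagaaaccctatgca
Counted against the ZNF222 unit, 64 of 84 bases were the same in ZNF226, a member of the same cluster. The units of ZNF583, ZNF527, ZNF773 and ZNF671 shared 55, 51, 49 and 46 bases with it. The spacing of the capitals and the linker are common to all 6 because units were chosen by them. Part of each count of shared bases was therefore set by that choice. Fingers could be counted in 243 members, with a median of 12 and a range of 0 to 36.

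Promoters came from RefSeq on GRCh38.p14, in windows of 250 bases before to 50 bases after the start, and 178 of the 259 members matched by symbol. The letters CCGGAAG, a core of sites that ETS factors bind, or their reverse CTTCCGG, stood in 47.75% of the 178 windows and in 10.72% of 22114 windows of all genes. ZNF genes on other chromosomes held them in 34.36% of 163 windows. The 120 bases just before the start are given below for 5 members that hold the letters and 2 that do not, with the letters in capitals. ZNF222, ZNF226, ZNF773, ZNF671 and ZNF274 had exon responses that differed between the genotypes, ZNF527 responded in both, and ZNF439 fell in both. These are picked examples. Over all tested members with a window, the responses differed in 26 of 81 with the letters and in 23 of 86 without.
ZNF222, chr19:44025259-44025378, plus strand: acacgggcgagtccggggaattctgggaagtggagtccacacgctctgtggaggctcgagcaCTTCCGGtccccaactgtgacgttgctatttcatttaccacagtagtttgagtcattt
ZNF226, chr19:44164980-44165099, plus strand: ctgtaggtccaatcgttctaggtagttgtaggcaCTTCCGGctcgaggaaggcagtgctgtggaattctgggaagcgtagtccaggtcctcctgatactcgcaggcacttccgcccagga
ZNF274, chr19:58182941-58183060, plus strand: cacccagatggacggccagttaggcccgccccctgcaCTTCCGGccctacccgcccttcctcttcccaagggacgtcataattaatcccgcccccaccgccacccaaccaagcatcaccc
ZNF671, chr19:57727625-57727744, minus strand: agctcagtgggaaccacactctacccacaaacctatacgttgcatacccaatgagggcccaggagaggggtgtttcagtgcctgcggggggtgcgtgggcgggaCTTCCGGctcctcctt
ZNF773, chr19:57499818-57499937, plus strand: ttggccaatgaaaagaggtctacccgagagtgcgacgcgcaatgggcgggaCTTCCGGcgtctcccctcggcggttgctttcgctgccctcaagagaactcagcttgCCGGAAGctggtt
ZNF527, chr19:37370979-37371098, plus strand: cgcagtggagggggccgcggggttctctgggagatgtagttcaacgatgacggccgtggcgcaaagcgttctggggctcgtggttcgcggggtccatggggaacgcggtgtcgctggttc
ZNF439, chr19:11848606-11848725, plus strand: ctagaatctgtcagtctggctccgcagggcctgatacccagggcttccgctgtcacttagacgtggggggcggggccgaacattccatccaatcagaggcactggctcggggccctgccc
ZNF773 held the letters on each strand, starting 69 and 13 bases before its start. They began 16 bases before the start in ZNF671, 58 in ZNF222, 83 in ZNF274 and 86 in ZNF226. ZNF527 and ZNF439 did not hold them anywhere in the window. Other letters searched on both strands were GGGCGG, in 67.98% of member windows against 42.96% of all, and CCAAT, in 59.55% against 36.17%. TATAAA was rarer, in 2.25% of member windows against 12.68% of all. TGAGTCA stood in 2.25% against 5.12%, and TGACGTCA in 3.37% against 2.01%. No motif searched lies inside another, although matches can share bases at their edges. Member windows held a median of 20 CG dinucleotides, against 12 over all windows. A match of letters is a description and not a bound site.

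Of the 259 members, 247 lay in 9 clusters along hg19 chromosome 19, taken as runs of at least 5 members with gaps under 1 Mb, and 12 lay outside. Cluster 1 ran from ZNF554 to ZNF77 with 5 members (chr19:2819871-2944968), and cluster 2 from ZNF557 to ZNF846 with 15 (chr19:7069454-9903855). Cluster 3 held 27 members from ZNF653 to ZNF791 (chr19:11594241-12750911). Cluster 4, next to the centromere, held 41 from ZNF101 to ZNF254 (chr19:19779604-24312653). On the long arm, cluster 5 held 6 members from ZNF807 to ZNF792 (chr19:35033366-35454952) and cluster 6 held 26 from ZNF565 to ZNF573 (chr19:36673187-38307939). Cluster 7 held 25 from ZNF575 to ZNF296 (chr19:44029648-45579845), and cluster 8 held 42 from ZNF175 to ZNF331 (chr19:52074550-54083522). Cluster 9, towards the end of the long arm, was the largest with 60 members from ZNF628 to ZNF446 (chr19:55987698-58992596).

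Members were transcribed at low to moderate levels. Per kilobase of exon, the median level over the 12 libraries was 3.53 CPM, the reads of a gene scaled to library depth after TMM normalization. The highest was ZNF146 at 30.9 CPM per kb, a protein made almost wholly of fingers, ahead of ZNF428 at 25.8, ZNF460 at 21.3, ZNF91 at 18.5 and ZNF724P at 14.1 CPM per kb. A low-count filter left 238 members for the exon test and 235 for the intron test, with 233 in both. The 21 members left out of the exon test had group means of at most 0.213 CPM, 8 of them lay in cluster 4, and 2 members had no exon read in any library. In 116 members less than 90% of the exon length was free of other genes, and reads there may belong to either gene, the more so since strand use in the counting is not given in the sources used here.

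Exon reads counted in genes numbered 42439957 to 63606344 per library in 11 libraries, while parent control replicate 1 had 135592046. It also had the lowest intron share, 26.3%, against 28.6% to 33.6% in the others, and a library name of another pattern. The main counts are therefore given with and without it. SLFN11 averaged 86.9 ± 1.58 CPM in control knockout libraries and 112 ± 4.93 CPM in control parent libraries (SD, n = 3 each; log2 difference −0.37, adjusted p = 0.000133). Its intron reads were higher in control knockout libraries, by 0.58 (adjusted p = 9.43e-07). Reads over a whole gene do not check a small edit, so the labels stand as given. Of 10 T lymphoblast markers LCK, at 357 to 576 CPM, and CD3D, at 269 to 383 CPM, were the highest, while CD2 stood at 9.55 to 19.7 CPM and PTCRA at 1.0 to 4.49 CPM. Of the 10, 4 fell and 0 rose with camptothecin in knockout cells, beside 9.28% and 7.3% of all genes tested. In parent cells 8 fell and 0 rose, beside 17.1% and 16.8% of all genes. CD79A, a B cell marker, stood at 13.8 to 31.0 CPM. CPM is a share of a library, so in these bulk samples fewer cells of a type and less RNA per cell cannot be told apart.

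Camptothecin raised exon reads of chromosome 19 ZNF genes in both genotypes, in far more members in parent cells. In knockout cells 59 of 238 members rose and 2 fell, beside 7.3% and 9.28% of all genes tested. In parent cells 169 rose and 1 fell, beside 16.8% and 17.1% of all genes. The median log2 change of the members was 0.18 in knockout cells and 0.48 in parent cells, where the median of all genes was 0.02 in knockout cells and 0.01 in parent cells. Called here means an adjusted p of at most 0.05 by edgeR's quasi-likelihood test with Benjamini-Hochberg adjustment over all genes.

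**Figure D1:**
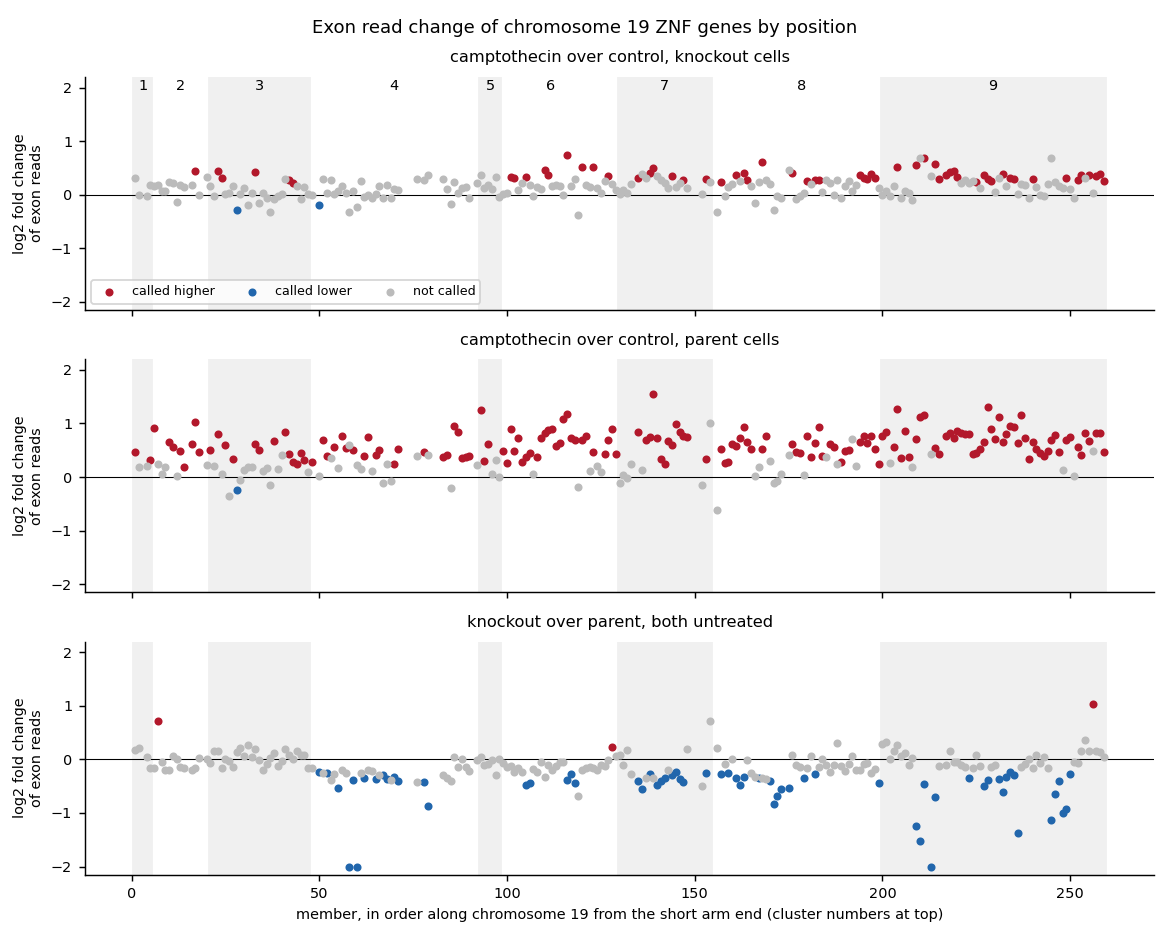
Log2 change in exon reads (y axis) of each tested member in order along chromosome 19 (x axis, with cluster numbers and every other cluster shaded), for camptothecin against control in knockout cells (top), in parent cells (middle) and for control knockout against control parent cells (bottom), coloured by call. Most points of the middle panel lie above 0, with 169 of 238 called higher. ZNF826P, ZNF626 and ZNF471 lie below the axis and are drawn at the lower limit of the bottom panel.

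Summed over all members, exon reads made up 4762, 4833 and 4843 CPM in camptothecin-treated knockout libraries, against 4388, 4380 and 4336 CPM in control knockout libraries. The sums were 6851, 6828 and 6808 CPM in camptothecin-treated parent libraries, against 5376, 4687 and 4743 CPM in control parent libraries. In each genotype the treated libraries lay above all their controls, and parent control replicate 1 was the highest of the 6 controls. The excess of that control was not spread evenly over the clusters. In cluster 4 it stood at 1460 CPM, against 1058 and 1071 CPM in the other parent controls, and in cluster 8 at 1006 CPM, against 806.9 and 827.4 CPM. In cluster 9 it was the lowest parent control, at 1103 CPM, beside 1153 and 1169 CPM. Whether its larger depth or its handling has a part in this was not tested.

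**Figure D2:**
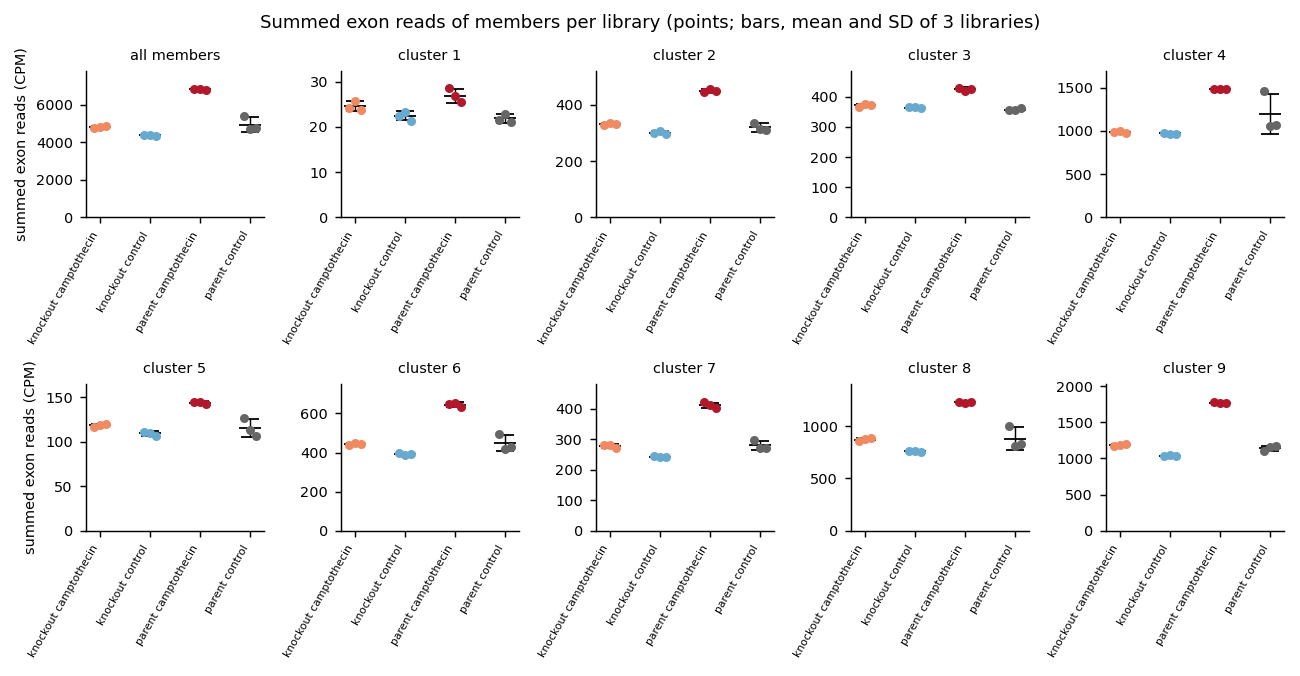
Summed exon CPM of the members of each cluster (y axis) in each of the 12 libraries (points, with the mean and SD of 3 libraries as bars), groups ordered as knockout camptothecin, knockout control, parent camptothecin and parent control. In cluster 9 the treated parent libraries lie at 1767 to 1778 CPM and every other library at or below 1198 CPM, while in cluster 4 parent control replicate 1, at 1460 CPM, reaches nearly as high as the treated parent libraries.

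In knockout cells, the 59 members that rose did so by 0.22 to 0.75 on the log2 scale, none of them by 2-fold. In 58 the 3 treated libraries lay above all 3 controls. How often this held for other called genes was not counted. ZNF527 in cluster 6 had 15.0, 11.8 and 13.1 CPM in camptothecin-treated knockout libraries, against 8.67, 7.37 and 7.61 CPM in control knockout libraries. Every treated value was above every control, and the log2 change was 0.75 ± 0.10 (SE; adjusted p = 5.86e-05). ZNF583 in cluster 9 had 9.08, 10.3 and 8.71 CPM in treated knockout libraries, against 6.34, 5.48 and 5.58 CPM in control knockout libraries. Again the groups did not overlap, with a log2 change of 0.69 ± 0.11 (adjusted p = 0.000185). ZNF836 in cluster 8 rose by 0.61, ZNF470 by 0.57 and ZNF542 by 0.56, both in cluster 9, and ZNF607 in cluster 6 by 0.52 (adjusted p = 0.00473, 0.00464, 0.000383 and 0.000252, in this order). Without reads from places shared with other genes, ZNF607 stood at 0.29 (adjusted p = 0.377), and 11.5% of its exon length is free of other genes.

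The pair that fell in knockout cells were ZNF439 in cluster 3 and ZNF101, the first member of cluster 4. ZNF439 had 33.0, 31.2 and 30.9 CPM in camptothecin-treated knockout libraries, against 37.0, 40.01 and 39.4 CPM in control knockout libraries. All treated values lay below all controls, and the log2 change was −0.29 ± 0.06 (adjusted p = 0.00353), which missed the threshold when libraries were scaled by size alone (−0.14, adjusted p = 0.166). ZNF101 changed by −0.20 (adjusted p = 0.0415), a call that was lost under 13 of 19 other settings, with an adjusted p of up to 0.59.

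Clusters shared unevenly in the knockout response. Cluster 9 had 24 of 58 tested members higher (median log2 change 0.25), cluster 8 had 13 of 41 (0.22), cluster 6 had 8 of 26 (0.17) and cluster 7 had 6 of 21 (0.23). Cluster 3 had 5 of 27 higher with 1 lower (0.03), and cluster 4 had 0 of 33 higher with 1 lower (0.06). Cluster 2 had 1 of 13, and clusters 1 and 5 had none. The number of members called in knockout cells moved with single libraries. Without parent control replicate 1 it was 109 higher and 3 lower, with 7 higher in cluster 4, 23 in cluster 8 and 38 in cluster 9. It was 35, 36 and 32 in all without knockout control replicates 1, 2 and 3, and 32 and 38 without knockout camptothecin replicates 2 and 3. With libraries scaled by size alone it was 139 higher and 0 lower, where the median of all genes itself moved to 0.17 in knockout and 0.14 in parent cells, and 99 in all when only the knockout libraries were fitted.

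In parent cells, the 169 members that rose did so by 0.18 to 1.55 on the log2 scale, 11 of them by at least 2-fold. In 164 the treated and control libraries did not overlap. The shares of all genes past 2-fold or without overlap were not counted. ZNF222 in cluster 7 (hg19 chr19:44529493-44537264) had 14.5, 12.7 and 12.5 CPM in camptothecin-treated parent libraries, against 4.90, 4.15 and 4.48 CPM in control parent libraries. Every treated value was more than 2-fold above every control, and the log2 change was 1.55 ± 0.14 (adjusted p = 3.41e-07). Only 0.6% of the ZNF222 exon length is free of ZNF223, so reads of the 2 genes cannot be told apart there. ZNF223 had 13.2, 12.8 and 11.1 CPM in treated parent libraries, against 7.62, 7.49 and 7.54 CPM in control parent libraries. Its groups did not overlap either, and its log2 change was 0.72 (adjusted p = 0.000104).

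ZNF773 in cluster 9 (chr19:58011282-58029771) had 31.4, 31.7 and 34.1 CPM in camptothecin-treated parent libraries, against 13.98, 11.8 and 13.6 CPM in control parent libraries. All treated libraries were high and none overlapped a control, with a log2 change of 1.30 ± 0.09 (adjusted p = 8.4e-09). ZNF784, a short member of cluster 9 (chr19:56132107-56135966), had 8.56, 7.64 and 9.35 CPM in treated parent libraries, against 3.43, 4.11 and 3.06 CPM in control parent libraries. The lowest treated value was well above the highest control, and the log2 change was 1.27 ± 0.14 (adjusted p = 1.99e-06). ZNF671 in cluster 9 (chr19:58231118-58238991), known for promoter methylation in carcinomas, had 38.6, 39.7 and 39.7 CPM in treated parent libraries, against 16.7, 17.9 and 18.2 CPM in control parent libraries. Values within each group were tight and the groups lay far apart, with a log2 change of 1.16 ± 0.08 (adjusted p = 4.87e-09). Its exons all overlap AC003006.7, so the reads may come from either gene.

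ZNF527 (chr19:37861962-37883967) and ZNF583 (chr19:56909334-56947403), which led the response in knockout cells, were among the 6 largest in parent cells too. ZNF527 had 23.2, 22.8 and 23.6 CPM in camptothecin-treated parent libraries, against 10.5, 10.97 and 9.37 CPM in control parent libraries. ZNF583 had 18.2, 17.6 and 17.8 CPM in treated parent libraries, against 8.94, 7.59 and 7.32 CPM in control parent libraries. Neither gene shares exon length with another gene, in neither did the groups overlap, and the log2 changes were 1.17 ± 0.10 (adjusted p = 1.03e-07) and 1.16 ± 0.10 (adjusted p = 1.6e-07). ZNF439 was the 1 member that fell in parent cells, with 30.2, 28.7 and 30.0 CPM in treated parent libraries, against 33.7, 35.3 and 36.4 CPM in control parent libraries. The groups lay close but did not overlap, and the log2 change was −0.25 ± 0.06 (adjusted p = 0.0052). That call, too, was lost when libraries were scaled by size alone (−0.12, adjusted p = 0.191).

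**Figure D3:**
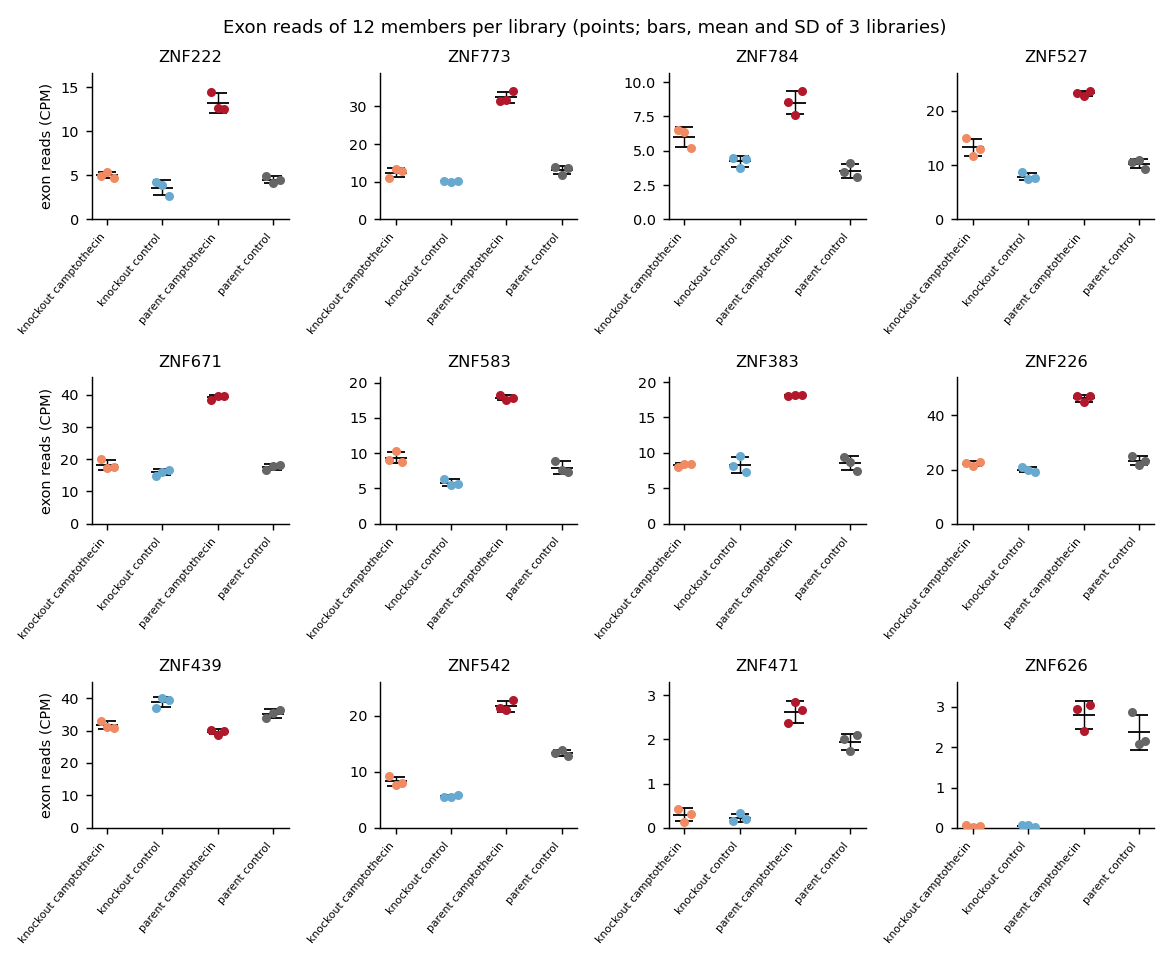
Exon CPM (y axes, each with its own scale) of 12 named members in the 3 libraries of each group, ordered as knockout camptothecin, knockout control, parent camptothecin and parent control, with the mean and SD as bars. ZNF222, ZNF773, ZNF671, ZNF383 and ZNF226 stand high in treated parent libraries alone, and ZNF626 and ZNF471 are near 0 in all knockout libraries.

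By position, the share of members that rose in parent cells was highest in cluster 9, at 52 of 58 tested (median log2 change 0.70), and cluster 6, at 22 of 26 (0.61). Cluster 8 had 29 of 41 (0.51), cluster 7 had 14 of 21 (0.68), cluster 2 had 8 of 13 (0.47) and cluster 4 had 20 of 33 (0.39). Cluster 3 had 13 of 27 higher and 1 lower (0.25), cluster 5 had 3 of 6 (0.31), cluster 1 had 2 of 4 (0.26), and outside clusters 6 of 9 rose (0.43). In summed CPM, cluster 9 stood at 1778, 1768 and 1767 in camptothecin-treated parent libraries, against 1103, 1153 and 1169 in control parent libraries. Cluster 3 stood at 430.5, 419.5 and 426.6 CPM in treated parent libraries, against 355.7, 356.2 and 361.8 CPM in control parent libraries. Cluster 3 thus changed less than cluster 9, but neither cluster had treated and control libraries that overlapped. Without parent control replicate 1, 179 members rose and 2 fell, and the cluster 4 median was 0.58 with 25 of 33 higher, against 0.68 and 51 of 58 in cluster 9 and 0.28 and 14 of 27 in cluster 3. Neighbouring tested members within clusters, 220 pairs, had correlated changes with Pearson r of 0.20 in knockout and 0.28 in parent cells, and such pairs share libraries and in part overlapping exons.

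The same direction was seen in ZNF genes elsewhere. Of 243 tested ZNF genes on other chromosomes, 53 rose and 13 fell in knockout cells (median log2 change 0.13), and 133 rose and 16 fell in parent cells (0.32). Of 1457 other chromosome 19 genes, 118 rose and 73 fell in knockout cells (0.06), and 354 rose and 164 fell in parent cells (0.15). The members were not tested against these groups. Gene length moved with the response across all genes: 14.9% of tested genes under 15 kb, 27.6% of those from 15 to 30 kb and 15.3% of longer ones rose in parent cells, and 29.8% of the longest class fell. Among members, 46 of 61 under 15 kb, 65 of 91 from 15 to 30 kb and 58 of 86 longer ones rose, with medians of 0.63, 0.48 and 0.42. In the longest class 1 of 86 members fell in parent cells. Over the 238 members the change correlated weakly with log10 length, at r = −0.19 in knockout and −0.20 in parent cells. It had r = 0.03 with the level per kb, and r = −0.01 with the number of fingers in 225 members, all in parent cells. Of members with 5 or fewer fingers 5 of 13 rose in parent cells (median 0.19), and of those with more 157 of 212 (0.49). These members share libraries, and many share exons and sequence.

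Split by the letters CCGGAAG in the promoter window, members with them rose in 23 of 81 cases in knockout cells (median 0.19) and in 68 of 81 in parent cells (0.54). Members without them rose in 22 of 86 in knockout cells (0.16) and in 59 of 86 in parent cells (0.46). The knockout change minus the parent change was called below 0 in 26 of 81 members with the letters (median −0.39). Without them it was called below 0 in 23 of 86 (−0.23). Members with less than 90% of their exons free of other genes rose in 79 of 111 cases in parent cells, and those with at least 90% in 90 of 127. In 11 members over 20% of 50-base stretches occur in another transcript, and 8 of the 11 rose in parent cells.

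Where the responses differed between the genotypes, the smaller one was that of knockout cells. The log2 change in knockout cells minus that in parent cells was called below 0 in 58 members and above 0 in 0, beside 4.47% and 1.84% of all genes (edgeR interaction test). Of 243 tested ZNF genes on other chromosomes, 50 were called below 0 and 2 above, so such calls were not particular to the members. The 0 members above 0 by edgeR were also 0 by DESeq2, which called 72 below 0. All 58 were among those that rose in parent cells, their differences ran from −0.35 to −1.08, and the median over the 238 members was −0.31, against 0.02 over all genes. The change in parent cells was above that in knockout cells in 213 of 238 members. The difference thus lay above 0 in 25 of 238 members. Over all genes tested it did so in 12403 of 23546, and in ZNF genes on other chromosomes in 66 of 243. Across members the changes in the genotypes, which share no library, had Pearson r = 0.60 (n = 238). By call, 58 members rose in both genotypes and 66 were called in neither. The shares of all genes with such joint calls were not counted.

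**Figure D4:**
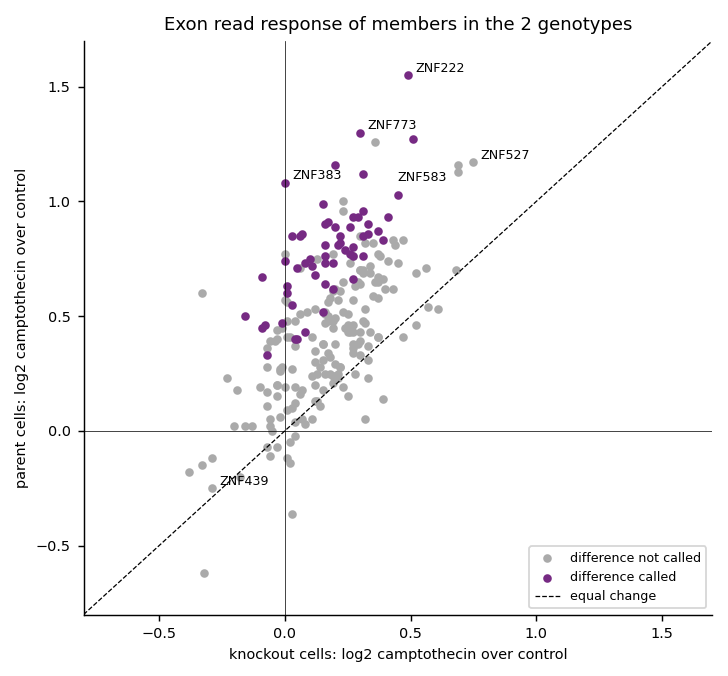
Log2 change in exon reads with camptothecin in knockout cells (x axis) and in parent cells (y axis) for the 238 tested members, coloured by whether the difference of the responses was called, with the line of equal change. Of the 238 points, 213 lie above the line, and the 58 called points include ZNF222, ZNF383 and ZNF773. Over all genes tested, which are not drawn, the knockout change minus the parent change was above 0 in 12403 of 23546.

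ZNF383 in cluster 6 (chr19:37708827-37734827), with 93.2% of its exons free of other genes, showed the largest difference. It had 8.06, 8.40 and 8.46 CPM in camptothecin-treated knockout libraries, against 8.09, 9.52 and 7.23 CPM in control knockout libraries. It had 17.99, 18.2 and 18.2 CPM in treated parent libraries, against 9.34, 8.77 and 7.47 CPM in control parent libraries. The knockout groups overlapped and the parent groups lay about 2-fold apart, with a difference between the responses of −1.08 ± 0.15 (adjusted p = 0.000234). ZNF226 in cluster 7 (chr19:44669225-44682533), free of other genes, had 22.2, 21.3 and 23.0 CPM in treated knockout libraries, against 20.8, 19.98 and 18.99 CPM in control knockout libraries. It had 47.2, 44.8 and 47.1 CPM in treated parent libraries, against 25.1, 21.8 and 23.0 CPM in control parent libraries. Treated parent libraries stood far above all 9 others, and the responses differed by −0.84 ± 0.10 (adjusted p = 3.63e-05).

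ZNF222 had 4.95, 5.41 and 4.68 CPM in treated knockout libraries, against 4.24, 3.88 and 2.61 CPM in control knockout libraries. That rise of 0.49 (adjusted p = 0.0371) was far below the one in parent cells, with a difference of −1.06 ± 0.21 (adjusted p = 0.00476). ZNF773 had 11.02, 13.4 and 12.8 CPM in treated knockout libraries, against 10.2, 9.99 and 10.2 CPM in control knockout libraries, a log2 change of 0.30 (adjusted p = 0.0338). Its difference was −1.0 ± 0.13 (adjusted p = 7.43e-05). ZNF671 had 20.04, 17.3 and 17.5 CPM in treated knockout libraries, against 14.9, 16.1 and 16.7 CPM in control knockout libraries. Those groups stood close together, the log2 change of 0.20 missed the threshold (adjusted p = 0.0902), and the difference was −0.96 ± 0.11 (adjusted p = 1.88e-05). For the leaders of the knockout response the difference was smaller and not called, at −0.42 for ZNF527 (adjusted p = 0.089) and −0.47 for ZNF583 (adjusted p = 0.0688).

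ZNF675 in cluster 4, an inhibitor of TRAF6 signalling, shows what parent control replicate 1 does. It had 30.2, 31.7 and 30.4 CPM in camptothecin-treated knockout libraries, against 33.0, 28.8 and 28.6 CPM in control knockout libraries. It had 61.6, 59.4 and 58.0 CPM in treated parent libraries, against 43.5, 27.5 and 27.8 CPM in control parent libraries, where the first value is replicate 1. The responses differed by −0.82 ± 0.20 (adjusted p = 0.0276) with all libraries and by −1.08 ± 0.08 (adjusted p = 3.1e-11) without that replicate, while leaving out any 1 of the treated or knockout libraries gave an adjusted p of 0.0505 to 0.0752. By cluster, the difference was called in 22 of 58 tested members of cluster 9, 8 of 26 of cluster 6, 7 of 41 of cluster 8, 6 of 21 of cluster 7 and 5 of 33 of cluster 4. Without parent control replicate 1 it was called in 124 members in all, with 35 in cluster 9, 16 in cluster 6, 26 in cluster 8, 9 in cluster 7 and 22 in cluster 4.

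Members with a known role followed the same pattern in part. ZNF274, which brings SETDB1 to the 3′ ends of ZNF genes, had 22.7, 25.5 and 23.1 CPM in camptothecin-treated knockout libraries, against 20.7, 23.0 and 22.9 CPM in control knockout libraries. It had 43.1, 45.6 and 45.9 CPM in treated parent libraries, against 26.4, 23.5 and 30.3 CPM in control parent libraries. The knockout groups overlapped and the parent groups did not, with a difference of −0.65 ± 0.12 (adjusted p = 0.00319). ZNF420, also called APAK and known as a repressor that binds p53, changed by 0.16 in knockout (adjusted p = 0.209) and 0.90 in parent cells (adjusted p = 1.98e-07). ZNF350, or ZBRK1, a partner of BRCA1, changed by 0.26 in knockout (adjusted p = 0.279) and 0.73 in parent cells (adjusted p = 0.000642). ZNF473, which takes part in the 3′ end processing of histone mRNA, rose by 0.23 in knockout (adjusted p = 0.0352) and by 0.52 in parent cells (adjusted p = 1.82e-05).

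ZNF91, a repressor of SVA retrotransposons in cluster 4, did not pass the test in either genotype. It had 121, 122 and 116 CPM in camptothecin-treated knockout libraries, against 140, 134 and 133 CPM in control knockout libraries. It had 156, 154 and 162 CPM in treated parent libraries, against 246, 144 and 151 CPM in control parent libraries, where the high value is replicate 1. The log2 change was −0.18 in knockout (adjusted p = 0.513) and −0.20 in parent cells (adjusted p = 0.391). Without that replicate it was −0.18 in knockout (adjusted p = 0.000873) and 0.10 in parent cells (adjusted p = 0.0749). ZNF331, an imprinted gene at the end of cluster 8, changed by 0.13 in knockout (adjusted p = 0.137) and rose by 0.25 in parent cells (adjusted p = 0.00235). ZNF432 in cluster 8 changed by 0.16 in knockout (adjusted p = 0.23) and rose by 0.52 in parent cells (adjusted p = 0.000124). Of the members highest per kb, ZNF428 changed by 0.04 in knockout and −0.02 in parent cells, and neither passed the test, while ZNF146 changed by 0.03 in knockout and rose by 0.27 in parent cells (adjusted p = 0.871 and 0.0305, in this order).

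The cofactors that KRAB members work with did not rise as a group. Of 32 cofactor genes tested, 1 rose and 8 fell in knockout cells (median log2 change −0.06), and 2 rose and 18 fell in parent cells (−0.22). Of all genes tested, 7.3% rose and 9.28% fell in knockout cells, and 16.8% rose and 17.1% fell in parent cells. TRIM28, the scaffold that KRAB domains bind, rose in both, to 559.5 ± 10.3 CPM in treated knockout libraries, against 479.4 ± 6.95 CPM in control knockout libraries, and to 537.9 ± 13.8 CPM in treated parent libraries, against 440.2 ± 37.1 CPM in control parent libraries (SD, n = 3 each). Its log2 change was 0.22 in knockout (adjusted p = 0.0272) and 0.29 in parent cells (adjusted p = 0.0023). SETDB1 had 63.65 ± 1.87 CPM in treated knockout libraries, against 65.7 ± 2.01 CPM in control knockout libraries, and 81.1 ± 1.21 CPM in treated parent libraries, against 63.6 ± 4.07 CPM in control parent libraries. Its change differed between the genotypes by −0.40 (adjusted p = 0.00853). The DNA methyltransferase DNMT3B and the chromatin remodeller ATRX fell in both genotypes. On the log2 scale DNMT3B fell by 0.50 in knockout (adjusted p = 4.66e-05) and 0.70 in parent cells (adjusted p = 4.25e-07). ATRX fell by 0.51 in knockout (adjusted p = 0.00065) and 0.64 in parent cells (adjusted p = 2.76e-05). Neither response was called different between the genotypes (adjusted p = 0.263 and 0.643). Of the HUSH silencing complex, PPHLN1 fell by 0.32 in knockout (adjusted p = 0.00487) and 0.64 in parent cells (adjusted p = 2.36e-06), and FAM208A by 0.43 (adjusted p = 0.000953) and 0.60 (adjusted p = 1.36e-05) in the same order. MPHOSPH8, of the same complex, changed by 0.18 in knockout and 0.12 in parent cells and did not pass the test (adjusted p = 0.443 and 0.548).

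Untreated knockout cells differed from untreated parent cells mainly downwards. Exon reads were lower in control knockout libraries in 64 of 238 members and higher in 3, beside 7.44% and 8.26% of all genes. The median log2 difference was −0.16, against −0.01 over all genes. In all 67 the control groups did not overlap, which was not counted for other called genes. With libraries scaled by size alone, 42 were lower and 9 higher, and with the 2 control groups fitted alone the total was 26. The total was 42 without knockout control replicate 2 and 38 without replicate 3. By cluster, 14 of 33 tested members were lower in cluster 4 (median −0.31), 11 of 21 in cluster 7 (−0.30), 13 of 41 in cluster 8 (−0.21) and 20 of 58 in cluster 9 (−0.11), and 0 of 27 in cluster 3 (0.04). Without parent control replicate 1 the counts were 15, 7, 8, 22 and 0 in these clusters, in the same order, and 60 lower and 5 higher in all. The medians were then −0.16 in cluster 4, −0.22 in cluster 7, −0.08 in cluster 8, −0.13 in cluster 9 and 0.04 in cluster 3, so cluster 7 and not cluster 4 had the lowest of these. Of 243 tested ZNF genes on other chromosomes 25 were lower and 23 higher (median −0.06). Cell type markers differed in the same comparison. Of 10 T lymphoblast markers 4 were higher in control knockout libraries, among them PTCRA by 1.37 (adjusted p = 0.000286) and CD1A by 1.25 (adjusted p = 3.8e-09), and 1 was lower, CD7 by −0.46 (adjusted p = 1.89e-05). The B cell marker CD79A was higher by 0.55 (adjusted p = 0.00107), and the part of such differences in the ZNF levels was not tested.

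In 8 members the control knockout level was at least 2-fold lower and called, and the share of all genes past that fold was not counted. ZNF626 in cluster 4 (chr19:20802866-20844401) had 0.0654, 0.0169 and 0.0418 CPM in camptothecin-treated knockout libraries, and 0.0583, 0.0591 and 0.0209 CPM in control knockout libraries. It had 2.95, 2.40 and 3.04 CPM in treated parent libraries, and 2.87, 2.08 and 2.15 CPM in control parent libraries. It was nearly silent in all 6 knockout libraries, with a log2 difference between controls of −5.62 ± 0.36 (adjusted p = 6.65e-09). Nearly all of its exon length overlaps CTC-513N18.7. Its intron reads were lower too, at 0.660, 1.03 and 0.673 CPM in control knockout libraries, against 18.98, 17.4 and 17.5 CPM in control parent libraries. The intron groups lay far apart, with a log2 difference of −4.50 ± 0.20 (adjusted p = 2.52e-13).

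ZNF471 in cluster 9 (chr19:57019211-57041589), known for promoter methylation in tumours, had 0.155, 0.335 and 0.188 CPM in control knockout libraries, against 2.01, 1.74 and 2.09 CPM in control parent libraries. The groups lay apart by a log2 difference of −3.09 ± 0.33 (adjusted p = 3.73e-06). The pseudogene ZNF826P, a neighbour of ZNF626, differed by −2.95 (adjusted p = 7.79e-05), with levels under 0.2 CPM in every knockout library. ZNF582 and ZNF154, both known as methylated in carcinomas, differed by −1.52 (adjusted p = 0.000443) and −1.37 (adjusted p = 2.95e-07). ZNF542, ZNF418 and ZNF135 differed by −1.24, −1.13 and −1.0, so 6 of the 8 members lay in cluster 9 and the other pair in cluster 4. Several overlap another gene, since ZNF154 has no exon length of its own and ZNF542 and ZNF582 overlap each other. DNA methylation was not measured here.

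Of the 3 members higher in untreated knockout cells, ZNF358 in cluster 2 had 12.1, 11.4 and 13.6 CPM in control knockout libraries, against 8.40, 6.78 and 7.35 CPM in control parent libraries. The groups did not overlap and the log2 difference was 0.71 ± 0.10 (adjusted p = 7.33e-05). ZNF132 differed by 1.03 (adjusted p = 0.00621) at 2.41, 2.31 and 2.86 CPM in control knockout libraries, against 0.773, 1.701 and 1.34 CPM in control parent libraries, and missed the threshold when only the control groups were fitted (adjusted p = 0.0584). ZNF574 differed by 0.24 (adjusted p = 0.038), a call lost under 12 of 19 other settings. The untreated comparison and each response use the same control libraries, so their values are only set side by side. ZNF383 and ZNF671, with large differences in response, differed by −0.05 (adjusted p = 0.814) and −0.14 (adjusted p = 0.232) between the untreated genotypes. ZNF542 and ZNF470, lower in untreated knockout cells (−1.24 and −0.70), had responses of 0.56 and 0.57 in knockout cells and 0.71 and 0.54 in parent cells.

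Intron reads, which come mostly from RNA not yet spliced, changed less than exon reads. Of 235 members tested, 13 rose and 8 fell with camptothecin in knockout cells, beside 7.85% and 9.05% of all genes, with a median log2 change of 0.00. In parent cells 64 rose and 9 fell, beside 12.1% and 14.2% of all genes, with a median of 0.19. The share that rose in knockout cells was below that of all genes. The difference of responses was called below 0 in 22 members and above 0 in 0, beside 2.81% and 3.0%, and DESeq2 also called 0 above. With libraries scaled by size alone, 25 rose and 2 fell in knockout cells, and 117 rose and 2 fell in parent cells, where the median of all genes moved to 0.13. Without parent control replicate 1, 18 rose and 13 fell in knockout cells, and 73 rose and 8 fell in parent cells. The knockout count fell to 7 and 11 in all without knockout control replicates 1 and 3. The count of differences was 13 and 14 without parent camptothecin replicates 1 and 2, 33 without parent control replicate 1, 8 on unique reads and 6 when scaled by exon depth.

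ZNF527 rose in introns as in exons, with 9.17, 8.54 and 9.33 intron CPM in camptothecin-treated knockout libraries, against 5.14, 6.68 and 6.88 CPM in control knockout libraries. It had 13.95, 12.9 and 12.4 intron CPM in treated parent libraries, against 6.37, 7.22 and 8.45 CPM in control parent libraries. Neither pair of groups overlapped, and the log2 changes were 0.53 in knockout (adjusted p = 0.0179) and 0.85 in parent cells (adjusted p = 0.000118). The knockout call was lost on leaving out control replicate 1 (adjusted p = 0.117) or treated replicate 3 (adjusted p = 0.0502) of the knockout libraries. ZNF542, ZNF836 and ZNF583 also rose in introns in knockout cells, by 0.64, 0.56 and 0.56 (adjusted p = 0.00551, 0.0117 and 0.00333, in this order). The call of ZNF836 was lost without knockout control replicate 1 (adjusted p = 0.0741) or treated replicate 2 (adjusted p = 0.0689). In parent cells ZNF227 and ZNF460 rose by 0.84 each, and ZNF574 by 0.84, with intron changes of 0.30, 0.17 and −0.36 in knockout cells, of which only that of ZNF227 was called (adjusted p = 0.0476). ZNF574 had the largest intron difference of responses, −1.20 (adjusted p = 0.00583), and ZNF552 had −0.79 (adjusted p = 0.00812). ZNF826P at −1.20 (adjusted p = 0.039) and ZNF844 at −1.03 (adjusted p = 0.0288) lost the call under 9 and 7 of 18 other settings.

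ZNF160 in cluster 8, known as a repressor of TLR4, was the 1 member whose exon reads rose while its intron reads fell in parent cells with all libraries. Without parent control replicate 1, ZNF473 was called in this way, with an exon change of 0.57 (adjusted p = 2.05e-08) and an intron change of −0.29 (adjusted p = 0.0466). The intron reads of ZNF160 stood at 35.2, 34.7 and 34.5 CPM in treated knockout libraries, against 52.8, 50.5 and 46.9 CPM in control knockout libraries. They stood at 35.6, 39.25 and 39.4 CPM in treated parent libraries, against 47.8, 51.5 and 49.7 CPM in control parent libraries. All treated libraries lay below all controls, with log2 changes of −0.53 in knockout (adjusted p = 7.41e-05) and −0.38 in parent cells (adjusted p = 0.000926). Its exon reads changed by −0.07 in knockout (adjusted p = 0.648) and by 0.28 in parent cells (adjusted p = 0.0187). ZNF439, which fell in exon reads, fell in introns by 0.41 in knockout (adjusted p = 0.000141) and by 0.21 in parent cells (adjusted p = 0.0212). ZNF101 fell in introns by 0.35 and 0.31, in knockout and parent cells in this order, each call lost under 5 of 19 other settings. ZNF137P fell in introns in knockout cells by 0.45 (adjusted p = 0.0234) and ZNF30 in parent cells by 0.35 (adjusted p = 0.0461), calls lost under 6 and 14 of 19 other settings. ZNF841 fell in parent cells with all libraries (−0.36, adjusted p = 0.0422) and not without parent control replicate 1 (−0.12, adjusted p = 0.415).

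A direct test of exon against intron reads in 233 members gave 11 with a larger exon than intron change in knockout cells and 0 with a smaller one, beside 2.1% and 5.24% of all genes. In parent cells it gave 72 and 0, beside 8.71% and 10.2%. Of 236 ZNF genes on other chromosomes, 11 had a larger and 10 a smaller exon change in knockout cells, and 64 and 12 in parent cells. The median log2 gap of the members was 0.15 in knockout and 0.28 in parent cells. Without parent control replicate 1 the counts were 31 in knockout and 92 in parent cells. The knockout count was 3, 6 and 3 without knockout control replicates 1, 2 and 3, 4 without knockout camptothecin replicate 3, and 4 on unique reads. Exon and intron changes across members, from the same libraries, had Pearson r = 0.55 in parent cells (n = 233). In parent cells 60 members rose in both kinds of reads, which was not counted over all genes.

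ZNF773 had the largest gap in parent cells, 1.06 ± 0.14 (adjusted p = 7.49e-05). Its intron reads stood at 20.7, 21.2 and 18.5 CPM in camptothecin-treated parent libraries, against 19.8, 15.9 and 15.0 CPM in control parent libraries. These groups overlapped (log2 change 0.25, adjusted p = 0.156), while its exon groups, given above, lay far apart. ZNF222 had a gap of 0.96 (adjusted p = 0.00317) and the pseudogene ZNF833P one of 1.02 (adjusted p = 6.87e-05), which missed the threshold on unique reads (0.38, adjusted p = 0.0909). In knockout cells ZNF833P, ZNF671 and ZNF552 had gaps of 0.68, 0.59 and 0.55 (adjusted p = 0.00445, 0.0132 and 0.0352, in this order). The call of ZNF671 was lost on leaving out replicate 1 or 3 of the knockout controls or replicate 3 of the treated knockout libraries (adjusted p = 0.0538 to 0.0708). That of ZNF552 was lost under 7 of 14 other settings, with an adjusted p of up to 0.184.

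**Figure D5:**
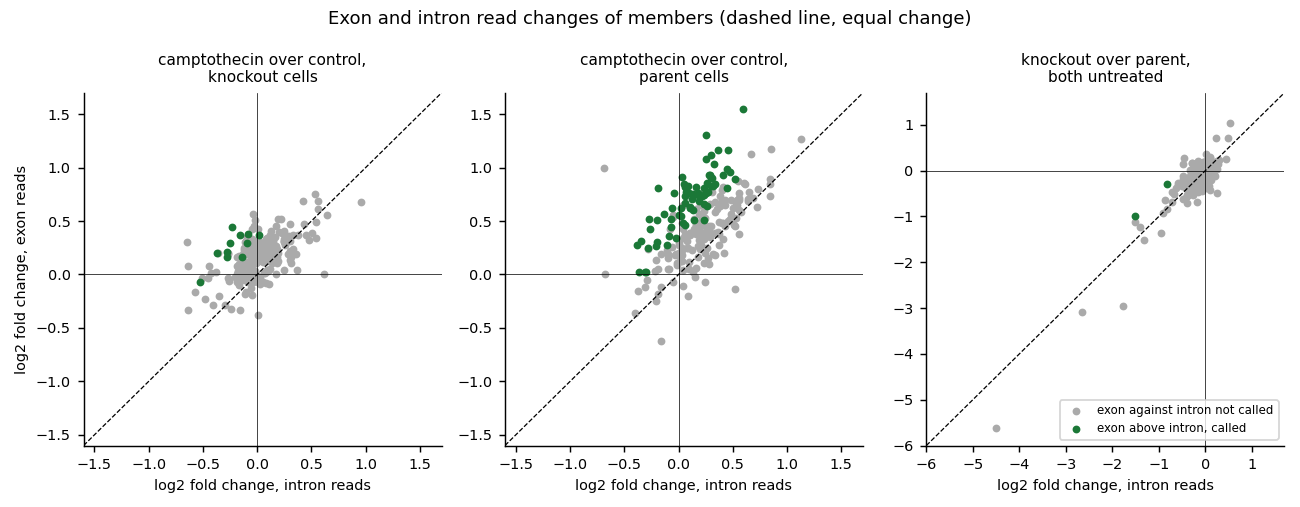
Log2 change in exon reads (y axis) against that in intron reads (x axis) for the 233 members tested on both, for camptothecin in knockout cells (left), in parent cells (middle) and for control knockout against control parent cells (right), with the line of equal change. Points of the middle panel lie mostly above the line, with 72 members called, while those of the right panel follow the line (r = 0.90).

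Between untreated genotypes exon and intron reads moved together. Intron reads were lower in control knockout libraries in 44 of 235 members and higher in 1, beside 6.43% and 8.17% of all genes. In 31 members both kinds of reads were lower, which was not counted over all genes. With libraries scaled by size alone 23 intron differences were lower and 3 higher, and without parent control replicate 1, 45 were lower and 1 higher. With the control groups fitted alone the total was 26, and it was 25, 25 and 26 without knockout control replicates 1, 2 and 3. The exon and intron differences had Pearson r = 0.90 over 233 members from the same libraries. The exon difference lay above the intron difference in 2 members, ZNF551 (by 0.55, adjusted p = 0.00519) and ZNF135 (by 0.52, adjusted p = 0.0419), and below it in 0, beside 0.369% and 0.346% of all genes. On unique reads the call was made in 0 members, and with libraries scaled by size alone or without parent control replicate 1 in 1. Both lie in cluster 9, and the call of ZNF135 was lost under 11 of 15 other settings. The intron reads of ZNF135 stood at 13.6, 13.9 and 13.8 CPM in control knockout libraries, against 38.97, 39.7 and 38.8 CPM in control parent libraries. Those groups were tight and far apart, with a log2 difference of −1.51 (adjusted p = 3.76e-10). ZNF439 was the member with higher intron reads in untreated knockout cells, by 0.21 (adjusted p = 0.039), a call lost under 11 of 19 other settings.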

How the data were processed

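RNA reads of 12 CCRF-CEM libraries, 3 in each of 4 groups, came as 1 table per library. The whole-number exon and intron counts per gene are as deposited by the authors, with hg19 coordinates. The TPM values in the same deposited tables, the authors' counts divided by length and depth, were not used for tests. Trim Galore 0.6.2, Trimmomatic 0.39, STAR 2.5.4a and Picard 2.9.2 appear per the submitters' processing notes, which give them no role. For the counting tool, its annotation and its strand setting, the entry is: not given in the sources used here. The names of the deposited tables mark duplicate reads as removed, which can cap counts of highly expressed genes, and no molecular identifiers are named.

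Genes passing filterByExpr were fitted in edgeR 4.0.16 (R 4.3.3, limma 3.58.1) with TMM normalization and the quasi-likelihood test with robust dispersion. All 12 libraries entered 1 fit with 8 residual degrees of freedom, over 23546 genes for exon reads and 19908 for intron reads. Exon against intron reads were tested as an interaction over 17351 genes, with the library as a block. Adjusted p-values are Benjamini-Hochberg over all genes, with a threshold of 0.05. Log2 changes carry their SE, and CPM uses TMM library sizes. The steps were tested on simulated data. Alternatives were DESeq2 1.42.0, scaling by library size, no filter, unique reads, only the groups compared, a replicate block, total gene reads, exon library size for introns, each library left out, and clusters by a gap of 0.5 Mb.

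Genes named were, per direction, the 6 largest exon and 4 largest intron changes that passed the threshold with non-overlapping groups at a mean of at least 1 CPM. The 3 largest exon against intron changes per direction had only to pass the threshold. The 5 highest levels per kb and members of known role were added. ZNF223 and other members outside these rules were named after their values were seen. The members, lists and rules were chosen with earlier results of these data known. Fingers were counted in GENCODE v29 transcripts, and promoters are RefSeq on GRCh38.p14. Python 3.11.15 and pandas 2.3.3 joined the tables.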

Additional observations from a re-analysis of the deposited data

Results flagged for a closer look

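The responses to camptothecin differed between knockout and parent cells, by edgeR's test of that difference with Benjamini-Hochberg adjustment over all genes, in each member named here. Values are the log2 change in knockout cells minus that in parent cells, and all lie below 0. In exon reads they were −1.08 for ZNF383, −1.06 for ZNF222, −1.0 for ZNF773, −0.96 for ZNF671, −0.84 for ZNF226 and −0.82 for ZNF675. In intron reads they were −1.2 for ZNF574, −1.2 for ZNF826P, −1.03 for ZNF844 and −0.79 for ZNF552. These members were named for the size of this difference, so the sizes are a description of the largest among the members tested. The exon differences of ZNF383, ZNF222, ZNF773, ZNF671 and ZNF226 and the intron difference of ZNF574 kept their call under every alternative run, except that ZNF222 and ZNF671 have too few exon reads free of other genes for a value on unique reads.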

How the results depend on the processing

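Of 64 recomputed counts of called members, libraries left out apart, 53 stayed within 1.5 times the reported count. Exon calls in knockout cells went to 139 with libraries scaled by size alone. Fitting the compared groups by themselves gave 99 there and 26 untreated exon calls. Intron calls in parent cells went to 119 by size alone, the intron difference of responses to 8 on unique reads and 6 by exon library size, and untreated intron calls to 26 by size alone and to 26 when the compared groups were fitted by themselves. Exon against intron calls went to 4 in knockout cells on unique reads, and between untreated genotypes to 1 by size alone and 0 on unique reads.

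With each library left out in turn, exon calls ranged from 32 to 112 in knockout cells, 153 to 181 in parent cells, 41 to 124 for the difference of responses and 38 to 83 between untreated genotypes. Intron calls ranged from 7 to 31, 51 to 88, 13 to 33 and 25 to 57 in the same order. Exon against intron calls ranged from 3 to 31 in knockout cells, 52 to 92 in parent cells and 1 to 2 between untreated genotypes. Of 63 named results, 41 kept their call and direction in every alternative run, 22 lost the call in at least 1, and 1 turned direction, that of ZNF135 exon against intron reads between untreated genotypes, at −0.02 on unique reads. The cause was not tested.

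With the replicate number as a block, exon calls were 54 in knockout cells, 171 in parent cells, 55 for the difference and 65 untreated, and intron calls 21, 76, 22 and 43. Libraries of the same number showed little shared deviation (correlations of −0.032 to 0.043 in exon and −0.033 to 0.083 in intron reads). With 3 libraries a group this cannot decide whether the numbers pair samples, and the labels do not say. No block was fitted for exon against intron reads.

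Clusters cut at gaps of 0.5 Mb numbered 10, with 15 members outside. Overlapping genes, unknown strand use and 3 libraries a group limit single members, and low levels limit the 27 members under 1 CPM.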
